A study of Arabidopsis thaliana with 32 samples.

Results

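The 10 genes described here serve the uptake and reduction of sulfate and the response of a plant to sulfur shortage. They were chosen by name and identifier, and their values were read from every entry of the authors' 12 deposited tables whose gene column holds that identifier. The tables list 5063 gene identifiers at 4802 loci in 12215 entries, where 19464 to 20035 loci were tested per comparison. Of the 10 genes, 5 were listed at least once: APR1 (AT4G04610), APR2 (AT1G62180), LSU1 (AT3G49580), LSU2 (AT5G24660) and SULTR1;2 (AT1G78000). The other 5, namely APR3 (AT4G21990), SULTR1;1 (AT4G08620), SULTR4;2 (AT3G12520), SDI1 (AT5G48850) and GGCT2;1 (AT5G26220), were listed in no table. Each table holds only the loci that passed the authors' q-value of at most 0.05, so a gene that is not listed either did not pass in that comparison or was not tested. A missing entry is therefore no measurement of stability.

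The study sequenced RNA from roots of Arabidopsis thaliana seedlings in 8 groups of 4 samples, which cross place, age and genotype. Flight seedlings grew in the Veggie plant hardware on the International Space Station, and ground seedlings grew in a ground unit of that hardware that followed the flight conditions 48 h later. Roots were taken 8 or 4 days after the plates were unwrapped in the light. The genotypes were Sku6, a name also given to an allele of the microtubule gene SPIRAL1, and the wild type Col-0. All groups shared the solid medium of half-strength salts, the light of 100 to 135 µmol and fixation in RNAlater, per the labels' protocols. A sample was a pool of 5 to 8 roots at 4 days and of 2 to 3 roots at 8 days, and its library was amplified from 10 ng of RNA. The flight and ground sets also differed in run date, handling and return to the laboratory, and these cannot be told apart from flight itself. In whole roots, fewer cells of a type and less RNA per cell cannot be told apart either.

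Plants take up sulfate through the SULTR transporters, of which SULTR1;1 and SULTR1;2 act at the root surface and SULTR4;2 releases sulfate from the vacuole. ATP sulfurylase (APS) activates sulfate to adenosine phosphosulfate, and the plastid enzymes APR1, APR2 and APR3 reduce it to sulfite on the way to cysteine, a step known to carry much of the control of the pathway. LSU1, LSU2, SDI1 and GGCT2;1 are known for strong induction when sulfur is short. SDI1 restrains glucosinolate synthesis and GGCT2;1 breaks down glutathione.

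The 250 bases before the annotated start of 4 of the genes are shown because APR1 and APR2 carried most of the listed changes, LSU2 lies in the merged locus with the strongest fall, and SULTR1;2 was the transporter that was listed. They were read from the RefSeq TAIR10.1 genome, 5′ to 3′ on the strand of the gene, at chr4:2324628-2324877 (plus strand) for APR1, chr1:22977886-22978135 (minus strand) for APR2, chr5:8444102-8444351 (minus strand) for LSU2 and chr1:29327265-29327514 (plus strand) for SULTR1;2. Capitals mark matches, on either strand, to 4 motifs: GAGAC, the core of the sulfur-responsive element SURE; CACGTG, the G-box; ACGT, the bZIP core, which every G-box contains; and TATAAA, the TATA box.
APR1: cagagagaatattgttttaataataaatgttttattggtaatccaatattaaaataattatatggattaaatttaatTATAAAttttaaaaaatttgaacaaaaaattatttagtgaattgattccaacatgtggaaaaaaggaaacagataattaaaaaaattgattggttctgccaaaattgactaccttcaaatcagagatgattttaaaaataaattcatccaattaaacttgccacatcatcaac
APR2: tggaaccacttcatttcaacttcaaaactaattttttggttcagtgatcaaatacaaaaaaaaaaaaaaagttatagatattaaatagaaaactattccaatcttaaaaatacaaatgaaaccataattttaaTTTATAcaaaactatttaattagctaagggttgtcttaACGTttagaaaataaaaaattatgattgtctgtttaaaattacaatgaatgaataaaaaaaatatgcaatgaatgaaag
LSU2: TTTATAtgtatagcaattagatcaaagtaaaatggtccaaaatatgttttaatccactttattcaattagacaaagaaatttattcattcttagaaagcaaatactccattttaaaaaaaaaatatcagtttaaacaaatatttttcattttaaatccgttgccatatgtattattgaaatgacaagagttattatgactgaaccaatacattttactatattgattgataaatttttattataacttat
SULTR1;2: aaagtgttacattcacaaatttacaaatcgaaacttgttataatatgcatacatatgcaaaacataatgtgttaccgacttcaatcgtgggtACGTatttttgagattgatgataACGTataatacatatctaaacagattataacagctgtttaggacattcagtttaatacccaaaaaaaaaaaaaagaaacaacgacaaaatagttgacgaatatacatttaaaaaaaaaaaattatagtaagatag

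The SURE core was found before 2 of the 10 genes, GGCT2;1 and SDI1, and before 25.8% of all 27443 annotated upstream regions of that length. Neither of those genes was listed in any table. None of the 4 sequences printed here holds it. The G-box was found before 0 of the 10 genes and before 6.49% of all regions. The bZIP core was found before 6 of the 10 genes, against 44.1% of all regions, and begins 79 bases before the start of APR2 (position -79) and at -158 and -135 before SULTR1;2. The TATA box was found before 6 of the 10 genes, against 47.3% of all regions, at -173 for APR1, -117 for APR2 and -250 for LSU2. A match describes the letters of this window and not a bound site.

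Before the results, the genotype and tissue labels were compared with the values. SPIRAL1 was at 7.21 to 13.0 FPKM in Sku6 and at 1210 to 1422 FPKM in Col-0 in the authors' deposited tables (FPKM is a fragment count divided by transcript length and by the library's mapped fragments). Of 9 root markers, 5 were listed: the nitrate and phosphate transporter genes NRT2.1 and PHT1;1, the root hair genes PRP3 and COBL9, and the channel gene TIP2;3. The root hair gene EXPA7 was among those not listed. Group levels of the 5 ran from 0.313 FPKM (NRT2.1, flight Col-0 roots at 8 days) to 261 FPKM (PHT1;1, ground Col-0 roots at 4 days). A listing marks a difference between groups, so the count of listed markers does not test the tissue label. Of 12 markers of green shoot tissue, 10 were listed, at up to 319 FPKM in a group, and none of the 10 was at 0. Between 19464 and 20035 loci were tested per comparison, as worked back from the authors' p- and q-values. Each deposited value stands for a whole group, so no spread between samples can be given and depth is unknown.

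Across the 12 comparisons the 10 genes had 16 entries, 12 of them lower and 4 higher in the first named group of flight over ground, 8 over 4 days or Sku6 over Col-0. APR1 had 8 of the entries, 5 lower and 3 higher. APR2 had 4, each lower. SULTR1;2 had 1 higher and 1 lower entry, and LSU1 and LSU2 had 1 lower entry each. Comparisons that share a group of samples are not independent of each other, and the authors scaled each table separately: for 1 group and 1 of these genes, the highest level in any table was at most 1.04 times the lowest.

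**Figure D1:**
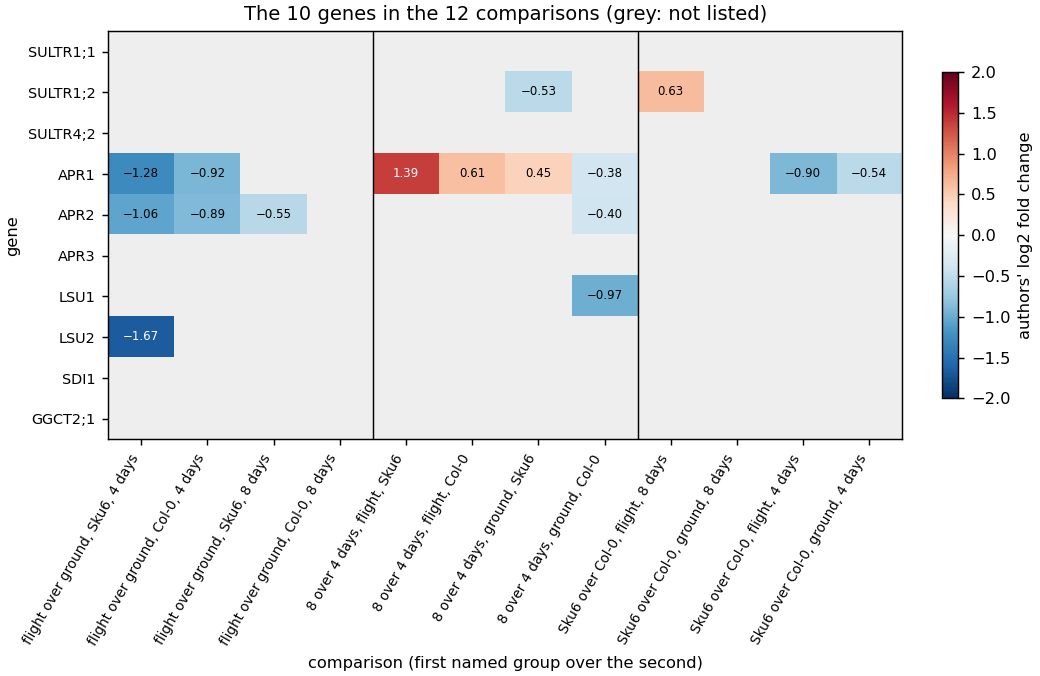
Log2 fold changes from the authors' deposited tables for the 10 genes (from top to bottom) in the 12 comparisons (from left to right); red is higher and blue is lower in the first named group, and grey is not listed. The flight comparisons hold only lower values, and APR1 is the only gene with entries in flight, age and genotype comparisons.

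In flight roots at 4 days APR1 and APR2, but not the third reductase gene APR3, were listed, and both fell in both genotypes. In Sku6 the locus that joins LSU2 and LSU4 fell as well. In Sku6 at 4 days 3 of the 10 genes were lower and 0 were higher, where 4.45% of all tested loci were listed, 2.18% higher and 2.28% lower. In Col-0 at 4 days 2 of the 10 were lower and 0 were higher, where 7.21% of loci were listed, 3.1% higher and 4.11% lower. In Sku6 at 8 days 1 of the 10 was lower and 0 were higher, where 2.51% of loci were listed, 1.08% higher and 1.43% lower. In Col-0 at 8 days 0 of the 10 were listed, where 4.05% of loci were listed, 1.26% higher and 2.8% lower. Between 1 and 3 genes make each of the first 3 counts.

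APR1 lies at chr4:2324878-2327064 on the plus strand and has 3 exons in the TAIR10.1 annotation. In Sku6 at 4 days it was at 21.7 FPKM in flight roots and 52.4 FPKM in ground roots in the authors' deposited table, a log2 fold change of −1.28 (authors' q = 0.00228). In Col-0 at 4 days it was at 40.8 FPKM in flight roots and 77.3 FPKM in ground roots in the authors' deposited table, a log2 fold change of −0.92 (authors' q = 0.00185). The flight level was thus the lower in both genotypes. APR1 ranked 92 of the 444 lower loci by size of change in Sku6 and 207 of the 806 lower loci in Col-0, and the median of the lower loci was −0.81 and −0.70 in these comparisons of the authors' deposited tables. The log2 fold changes in Sku6 and Col-0 differed by −0.35, and no test of that difference could be made.

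At 8 days APR1 was not listed between flight and ground roots. Its group levels at 8 days are known from other comparisons: 58.4 FPKM in flight and 73.9 FPKM in ground roots of Sku6, and 64.5 FPKM in flight and 60.7 FPKM in ground roots of Col-0, in the authors' deposited tables. Set across separately scaled tables, the flight level was 0.791 times the ground level in Sku6 and 1.06 times the ground level in Col-0. Neither ratio was tested.

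APR2 lies at chr1:22975530-22977885 on the minus strand, with 4 exons. It had entries in 3 of the 4 flight comparisons, each lower. In Sku6 at 4 days it was at 34.5 FPKM in flight roots and 72.0 FPKM in ground roots in the authors' deposited table, a log2 fold change of −1.06 (authors' q = 0.00228). In Col-0 at 4 days it was at 42.7 FPKM in flight roots and 79.1 FPKM in ground roots in the authors' deposited table, a log2 fold change of −0.89 (authors' q = 0.00185). The flight level was again the lower in both genotypes, as for APR1. In Sku6 at 8 days APR2 was at 46.8 FPKM in flight roots and 68.5 FPKM in ground roots in the authors' deposited table, a log2 fold change of −0.55 (authors' q = 0.00373). The 8-day change in Sku6 was smaller in size than the 4-day change by 0.51 on the log2 scale, a difference that was not tested. APR2 was not listed in flight over ground for Col-0 at 8 days, and no table gives its level in flight Col-0 roots at that age.

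**Figure D2:**
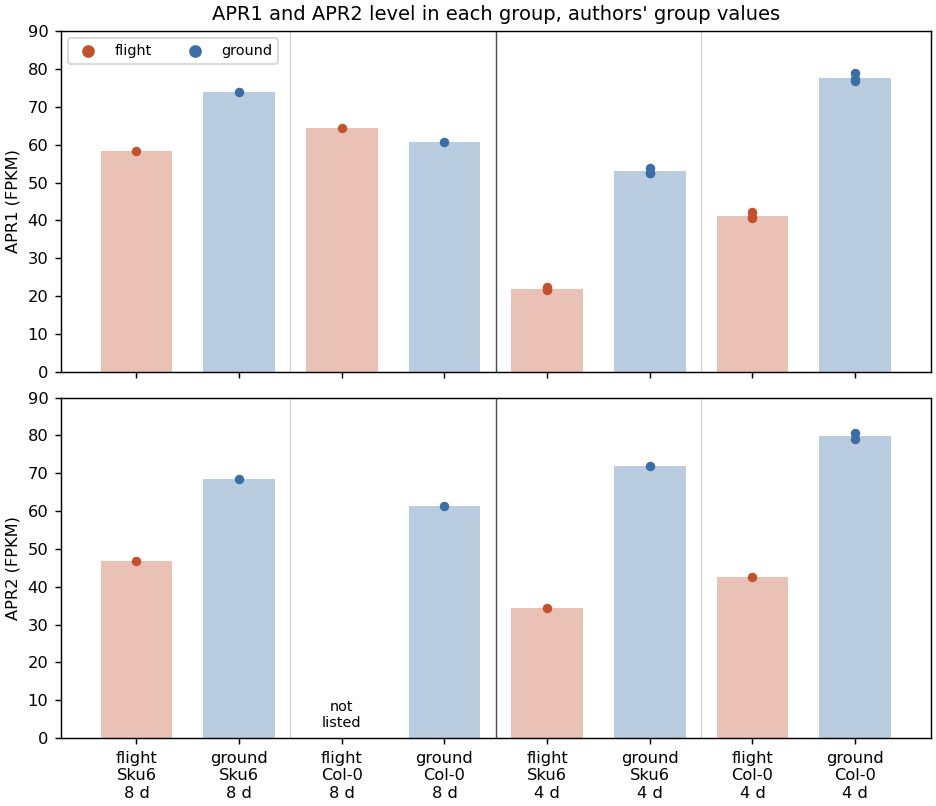
Group levels of APR1 (top) and APR2 (bottom) in FPKM in the 8 groups, from the authors' deposited tables; a point is the value in 1 table, a bar is the mean over tables and no error can be given. At 4 days the flight bar is below the ground bar for both genes in both genotypes, and the lowest APR1 level, 21.7 to 22.3 FPKM, is that of 4-day flight Sku6 roots.

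LSU2 encodes a small protein of the LSU family, whose members are known to bind other proteins under sulfur shortage. Its gene is at chr5:8443279-8444101 on the minus strand and has 1 exon. In Sku6 at 4 days its locus was at 45.6 FPKM in flight roots and 145 FPKM in ground roots in the authors' deposited table, a log2 fold change of −1.67 (authors' q = 0.0310). This was the largest change at a locus of any of the 10 genes in the authors' deposited tables, and it ranked 42 of the 444 lower loci. The authors' locus joins LSU2 and its neighbour LSU4, so the value cannot be assigned to either gene. LSU2 was not listed in the other 11 comparisons, and its level in the other 6 groups is not given.

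**Figure D3:**
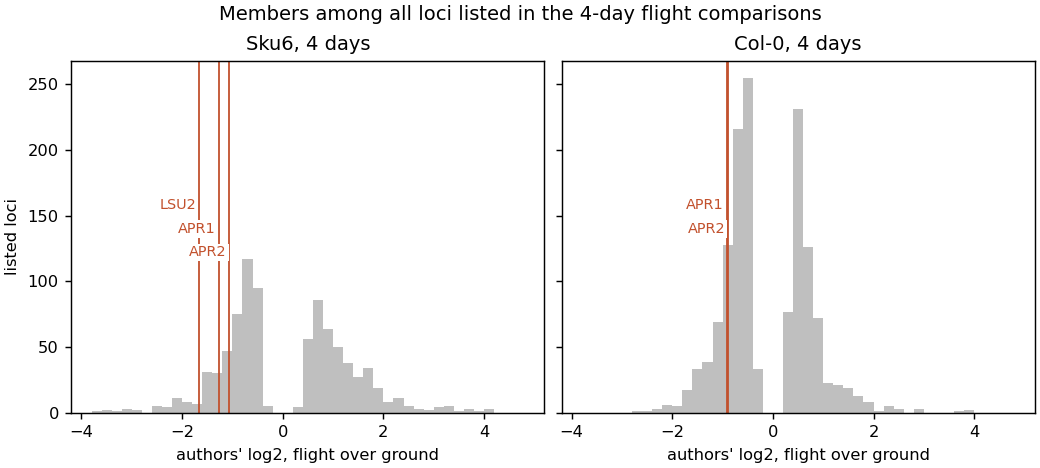
Distribution of log2 fold changes, flight over ground at 4 days, over all loci in the authors' deposited tables for Sku6 (left) and Col-0 (right), with the number of loci on the vertical axis; red lines mark the listed genes among the 10. APR1, APR2 and the locus of LSU2 and LSU4 (marked LSU2) lie beyond the median lower locus (−0.81) in Sku6, and APR1 and APR2 beyond that in Col-0 (−0.70).

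SULTR1;2, SULTR1;1, SULTR4;2, APR3, LSU1, SDI1 and GGCT2;1 were listed in none of the 4 flight comparisons. For SULTR1;2 a level in flight and in ground roots of Sku6 at 8 days comes from other tables: 54.7 FPKM in flight and 42.8 FPKM in ground roots in the authors' deposited tables, a ratio of 1.28 that was not tested.

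Some markers of shoot and of root tissue differed between the flight and ground roots as well. In Sku6 at 4 days, 4 of the 12 shoot markers were listed, 3 higher and 1 lower in flight, with a summed level of 152 FPKM in flight and 82.3 FPKM in ground roots in the authors' deposited table. In Col-0 at 4 days, 2 of the 12 were listed, both lower, with a sum of 207 FPKM in flight and 267 FPKM in ground roots in the authors' deposited table. LHCB2.1, the 1 shoot marker listed in both genotypes, was lower in flight in both, and the other listed shoot markers were different genes in each genotype. Of the 9 root markers, 2 were listed in each genotype at 4 days, 1 higher and 1 lower in Sku6 and both lower in Col-0, with sums of 63.1 FPKM in flight against 103 FPKM in ground roots of Sku6 and 255 FPKM in flight against 449 FPKM in ground roots of Col-0 in the authors' deposited tables. TIP2;3 was lower in all 4 flight comparisons. At 8 days, 0 of the 12 shoot markers were listed in Sku6 and 6 of the 12 were lower in Col-0, where the sum was 319 FPKM in flight and 565 FPKM in ground roots in the authors' deposited table. Each sum covers only the markers listed in that comparison. The part of these markers in the changes of the sulfur genes was not tested.

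Only APR1 was listed in more than 1 age comparison, and its direction differed between settings. The counts of the 10 genes below rest on 1 to 3 genes each. At 8 days APR1 was higher than at 4 days in 3 of the 4 settings and lower in ground Col-0 roots. In flight Sku6 roots 1 of the 10 genes was higher at 8 days and 0 were lower, where 8.35% of loci were listed, 3.92% higher and 4.43% lower. In flight Col-0 roots 1 of the 10 was higher and 0 were lower, where 6.78% were listed, 3.33% higher and 3.45% lower. In ground Sku6 roots 1 of the 10 was higher and 1 was lower, where 9.43% were listed, 4.77% higher and 4.67% lower. In ground Col-0 roots 3 of the 10 were lower and 0 were higher, where 11.2% were listed, 5.69% higher and 5.54% lower.

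In flight Sku6 roots APR1 was at 58.4 FPKM at 8 days and 22.3 FPKM at 4 days in the authors' deposited table, a log2 fold change of 1.39 (authors' q = 0.00133). In flight Col-0 roots it was at 64.5 FPKM at 8 days and 42.3 FPKM at 4 days in the authors' deposited table, a log2 fold change of 0.61 (authors' q = 0.00673). In ground Sku6 roots it was at 73.9 FPKM at 8 days and 54.0 FPKM at 4 days in the authors' deposited table, a log2 fold change of 0.45 (authors' q = 0.0259). The older roots were higher in each of these 3 settings, most in flight Sku6 roots, whose 4-day level was the lowest of the 8 groups. In ground Col-0 roots APR1 was at 60.7 FPKM at 8 days and 79.0 FPKM at 4 days in the authors' deposited table, a log2 fold change of −0.38 (authors' q = 0.0406). The 4-day groups spread from 21.7 to 79.0 FPKM and the 8-day groups from 58.4 to 73.9 FPKM over the authors' deposited tables. The age change on the ground was higher by 0.83 on the log2 scale in Sku6 than in Col-0, and the age change in Col-0 was higher by 0.99 in flight than on the ground. Neither difference could be tested.

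APR2 was listed for age in ground Col-0 roots, at 61.3 FPKM at 8 days and 80.8 FPKM at 4 days in the authors' deposited table, a log2 fold change of −0.40 (authors' q = 0.00809). In Sku6 its levels set across tables were 46.8 FPKM at 8 days and 34.5 FPKM at 4 days in flight, and 68.5 FPKM at 8 days and 72.0 FPKM at 4 days on the ground, in the authors' deposited tables. These are ratios of 1.36 in flight and 0.952 on the ground, untested. APR1 and APR2, which catalyse the same reaction, thus had the same direction in ground Col-0 roots, and APR2 had no listed age change in the other 3 settings.

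Together APR1 and APR2 summed to 56.4 FPKM in flight Sku6 roots at 4 days against 125 FPKM in ground Sku6 roots, and to 84.0 FPKM in flight Col-0 roots at 4 days against 158 FPKM in ground Col-0 roots, in the authors' deposited tables. The share of APR1 in that sum, on the FPKM scale, was 38.9% in flight and 42.4% in ground Sku6 roots at 4 days. In Sku6 at 8 days it was 55.5% in flight and 51.9% on the ground. In Col-0 it was 49.2% in flight and 49.3% on the ground at 4 days, and 49.8% on the ground at 8 days. APR1 was thus the lower of the 2 genes in Sku6 at 4 days and the higher at 8 days. The 8-day levels of the 2 genes in Sku6 come from separately scaled tables and were close on the ground. Levels were near equal in the Col-0 groups that have both, and flight Col-0 roots at 8 days have no APR2 level. No difference between the 2 genes was tested.

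LSU1, at chr3:18374908-18375940 on the minus strand, was at 10.0 FPKM at 8 days and 19.6 FPKM at 4 days in ground Col-0 roots in the authors' deposited table, a log2 fold change of −0.97 (authors' q = 0.0115). It was listed in no other comparison. SULTR1;2, the main root sulfate uptake transporter, at chr1:29327515-29333220 on the plus strand, was at 42.8 FPKM at 8 days and 61.9 FPKM at 4 days in ground Sku6 roots in the authors' deposited table, a log2 fold change of −0.53 (authors' q = 0.0290). In those ground Sku6 roots APR1 was thus higher and SULTR1;2 lower at 8 days.

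The shoot markers moved with age in every setting. Of the 12, 7 were listed in flight Sku6, 7 in flight Col-0, 8 in ground Sku6 and 4 in ground Col-0 roots, each lower at 8 days. The sums were 246 FPKM at 8 days against 796 FPKM at 4 days in flight Sku6, 175 against 380 FPKM in flight Col-0, 229 against 513 FPKM in ground Sku6 and 25.4 against 92.7 FPKM in ground Col-0, each in the authors' deposited table. Each sum covers only the entries listed in that comparison. In both flight settings it holds 8 entries of 7 markers, because RBCS1A was listed at more than 1 locus. RBCS1A and LHCB2.1 were not listed for age in ground Col-0 roots. Set across comparisons, RBCS1A (at 1 locus) was there at 223 FPKM at 8 days and 255 FPKM at 4 days. LHCB2.1 was at 13.6 FPKM at 8 days and 11.7 FPKM at 4 days, both untested. Of the 9 root markers, 3 to 5 were listed in each setting, and each of those was lower at 8 days. The part of the markers in the age changes was not tested.

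Between the genotypes, APR1 was lower in Sku6 than in Col-0 at 4 days in both places. In flight roots at 4 days 1 of the 10 genes was lower and 0 were higher in Sku6, where 2.02% of loci were listed, 1.55% higher and 0.473% lower. In ground roots at 4 days 1 of the 10 was lower and 0 were higher, where 2.93% were listed, 1.45% higher and 1.48% lower. In flight roots at 8 days 1 of the 10 was higher and 0 were lower, where 1.4% were listed, 1.03% higher and 0.371% lower. In ground roots at 8 days 0 of the 10 were listed, where 1.34% of loci were listed, 0.729% higher and 0.608% lower. Each of the first 3 counts is 1 gene.

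In flight roots at 4 days APR1 was at 21.8 FPKM in Sku6 and 40.7 FPKM in Col-0 in the authors' deposited table, a log2 fold change of −0.90 (authors' q = 0.0180). In ground roots at 4 days it was at 52.6 FPKM in Sku6 and 76.7 FPKM in Col-0 in the authors' deposited table, a log2 fold change of −0.54 (authors' q = 0.0161). The Sku6 level was the lower in both places, and the difference between the log2 fold changes, −0.36, was not tested. At 8 days APR1 was not listed between genotypes. Set across tables, its 8-day level in Sku6 was 0.906 times that in Col-0 in flight and 1.22 times that in Col-0 on the ground, untested. The 5 shoot markers listed in flight roots at 4 days were higher in Sku6, with a sum of 624 FPKM in Sku6 and 351 FPKM in Col-0 in the authors' deposited table. In ground roots at 4 days 0 of the 12 were listed. Of the 9 root markers, NRT2.1 was listed in flight roots at 4 days, at 6.70 FPKM in Sku6 and 2.72 FPKM in Col-0, and TIP2;3 in ground roots at 4 days, at 99.97 FPKM in Sku6 and 190 FPKM in Col-0, in the authors' deposited tables. The part of these markers in the genotype differences of APR1 was not tested.

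APR2 was not listed between genotypes. Its levels set across tables gave Sku6 over Col-0 ratios of 0.808 in flight and 0.900 on the ground at 4 days, and 1.12 on the ground at 8 days, untested. SULTR1;2 was at 54.7 FPKM in Sku6 and 35.4 FPKM in Col-0 in flight roots at 8 days in the authors' deposited table, a log2 fold change of 0.63 (authors' q = 0.0130). Of the 12 shoot markers 0 were listed in that comparison, and 1 of the 9 root markers, the phosphate transporter gene PHT1;1, was at 113 FPKM in Sku6 and 84.3 FPKM in Col-0 in the authors' deposited table. Its part in the result was not tested. The SULTR1;2 upstream sequence printed above holds 2 bZIP cores and no TATA box. APR3, SULTR1;1, SULTR4;2, SDI1 and GGCT2;1 have no level in any group.

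The 65 other genes of sulfur metabolism that were looked up alongside included 30 that were listed at least once. Of all loci, 4802 were listed at least once, where 19464 to 20035 were tested per comparison. The counts of genes listed anywhere in the lists below stand against the same numbers. In flight roots of Sku6 at 4 days 3 of the 65 were higher and 11 lower, where 2.18% of all loci were higher and 2.28% lower, with a median log2 of −0.54 where the median of all listed loci was −0.42 in the authors' deposited table. In flight roots of Col-0 at 4 days 1 was higher and 12 lower, where 3.1% of all loci were higher and 4.11% lower. The median was −0.64 where all listed loci had −0.46 in the authors' deposited table. The medians for both genotypes pool higher and lower loci, so they depend on the mix of directions. Among all lower loci alone the median was −0.81 in Sku6 and −0.70 in Col-0. At 8 days 2 were higher (3.08% of the 65) and 4 lower (6.15%) in Sku6, where 1.08% of all loci were higher and 1.43% lower. In Col-0 at 8 days 1 was higher (1.54%) and 3 lower (4.62%), where 1.26% of all loci were higher and 2.8% lower. LSU4 is counted among the 11 through the locus it shares with LSU2.

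Among the activating enzymes, APS4 was lower in all 4 flight comparisons. It was at 126 FPKM in flight and 170 FPKM in ground roots of Sku6 at 4 days, a log2 fold change of −0.43 in the authors' deposited table. In Col-0 at 4 days it was at 113 FPKM in flight and 203 FPKM in ground roots, a log2 fold change of −0.84 in the authors' deposited table. At 8 days its log2 fold change was −0.63 in both genotypes in the authors' deposited tables. APS4 thus stayed listed at 8 days in Col-0, where none of the 10 genes was. SDI2, a relative of SDI1, was also lower in all 4 flight comparisons. It was at 16.6 FPKM in flight and 45.1 FPKM in ground roots of Sku6 at 4 days in the authors' deposited table, and the log2 fold changes were −1.44 in Sku6 and −0.98 in Col-0 at 4 days, and −0.61 in Sku6 and −0.60 in Col-0 at 8 days. Over all loci, 85 of the 2410 listed in any flight comparison were lower in all 4, and 18 were higher in all 4.

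The APK enzymes divert adenosine phosphosulfate from reduction to PAPS, the donor for sulfation. In flight, APK4 was higher in Sku6, at 13.6 FPKM in flight and 4.36 FPKM in ground roots at 4 days and 6.0 FPKM in flight and 2.32 FPKM in ground roots at 8 days in the authors' deposited tables. Its log2 fold changes were 1.64 and 1.37, opposite in sign to those of APR2 in the same tables. APK4 was not listed in flight over ground for Col-0. APK1, at 105 to 162 FPKM in the flight groups, was listed in no comparison of flight over ground. APK2 was lower in flight Col-0 roots at 4 days (log2 −0.47 in the authors' deposited table). With age, APK2 was higher at 8 days in all 4 settings, with log2 fold changes of 1.08 in flight Sku6, 0.85 in flight Col-0, 0.80 in ground Sku6 and 0.32 in ground Col-0 in the authors' deposited tables. In flight Sku6 roots APK4 was lower at 8 days (log2 −1.27) and APK1 was higher (log2 0.49).

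Of the 12 sulfate transporters, 5 were listed anywhere. SULTR2;1, which moves sulfate in vascular tissue, was at 21.4 FPKM in flight and 9.01 FPKM in ground roots of Sku6 at 4 days in the authors' deposited table, a log2 fold change of 1.25. Between genotypes on the ground at 4 days it was at 9.05 FPKM in Sku6 and 25.5 FPKM in Col-0. That log2 fold change was −1.49 in the authors' deposited table. Both comparisons share the ground Sku6 roots at 4 days, which had the lowest SULTR2;1 level of the groups with a level. SULTR1;3, a phloem transporter, was lower in flight Sku6 roots at 4 days, at 1.83 FPKM in flight and 3.88 FPKM in ground roots in the authors' deposited table. SULTR3;5 was higher and SULTR1;3 lower at 8 days in all 4 settings. SULTR2;2 was at 10.6 FPKM in Sku6 and 5.34 FPKM in Col-0 in flight roots at 4 days in the authors' deposited table. In flight over ground, 1 of the 12 transporters was higher and 1 lower in Sku6 at 4 days, where 2.18% of all loci were higher and 2.28% lower. In the other comparisons of flight over ground 0 were listed, so no direction of the transporters as a family can be given.

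In cysteine synthesis 2 of 10 genes were listed, SERAT2;2 (serine acetyltransferase) and OASA1 (cytosolic cysteine synthase). Both were lower in flight Col-0 roots at 4 days, with log2 fold changes of −0.43 each, and lower at 8 days in ground Col-0 roots, with −0.33 and −0.29, in the authors' deposited tables. Of all tested loci, 4.11% were lower in the first of these comparisons and 5.54% in the second. GSH1, which makes the precursor of glutathione, was the 1 gene of 5 listed for glutathione. It was at 79.2 FPKM at 8 days and 116 FPKM at 4 days in ground Col-0 roots, and, in ground roots at 4 days, at 80.5 FPKM in Sku6 and 112 FPKM in Col-0, in the authors' deposited tables. Of the 6 genes of the methionine list 4 were listed, MAT3, SAM2, MTO3 and SAM1, which make S-adenosylmethionine. All 4 were lower at 8 days in ground Col-0 roots, where 5.54% of all tested loci were lower. Their log2 fold changes were −0.51, −0.38, −0.32 and −0.31 in the authors' deposited table. MAT3 was also lower in flight in 3 comparisons, those at 4 days and Sku6 at 8 days.

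Glucosinolates are sulfur-rich defence compounds whose synthesis needs PAPS. Of the 20 genes of their synthesis, 1 was higher and 6 were lower in flight at 4 days in each genotype, where 2.18% of all loci were higher and 2.28% lower in Sku6, and 3.1% higher and 4.11% lower in Col-0. Among them SOT18 and SOT17 are sulfotransferases of the last step. Their log2 fold changes were −0.96 and −0.76 in Sku6 and −0.93 and −0.87 in Col-0 in the authors' deposited tables. SOT16 of the same list was listed in no comparison of flight over ground. At 8 days 1 of the 20 was higher and 1 lower in flight in each genotype. Of all loci, 1.08% were higher and 1.43% lower in Sku6, and 1.26% higher and 2.8% lower in Col-0. With age 11 were higher and 1 lower at 8 days in flight Sku6, 9 higher and 0 lower in flight Col-0, 7 higher and 0 lower in ground Sku6, and 1 higher and 1 lower in ground Col-0 roots. The shares of all loci were 3.92% higher and 4.43% lower in flight Sku6, 3.33% and 3.45% in flight Col-0, 4.77% and 4.67% in ground Sku6, and 5.69% and 5.54% in ground Col-0. CYP79B2, which starts indolic glucosinolate synthesis, had log2 fold changes of 1.12, 0.76 and 1.25 in the first 3 settings in the authors' deposited tables. It was not listed for age in ground Col-0 roots, the setting in which APR1 was lower at 8 days. Set across comparisons, CYP79B2 was there at 92.1 FPKM at 8 days and 72.9 FPKM at 4 days, untested. Among the 65 genes as a whole, 16 were higher and 3 lower at 8 days in flight Sku6, 12 higher and 1 lower in flight Col-0, 10 higher and 1 lower in ground Sku6, and 3 higher and 9 lower in ground Col-0 roots, against the same shares of all loci.

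**Figure D4:**
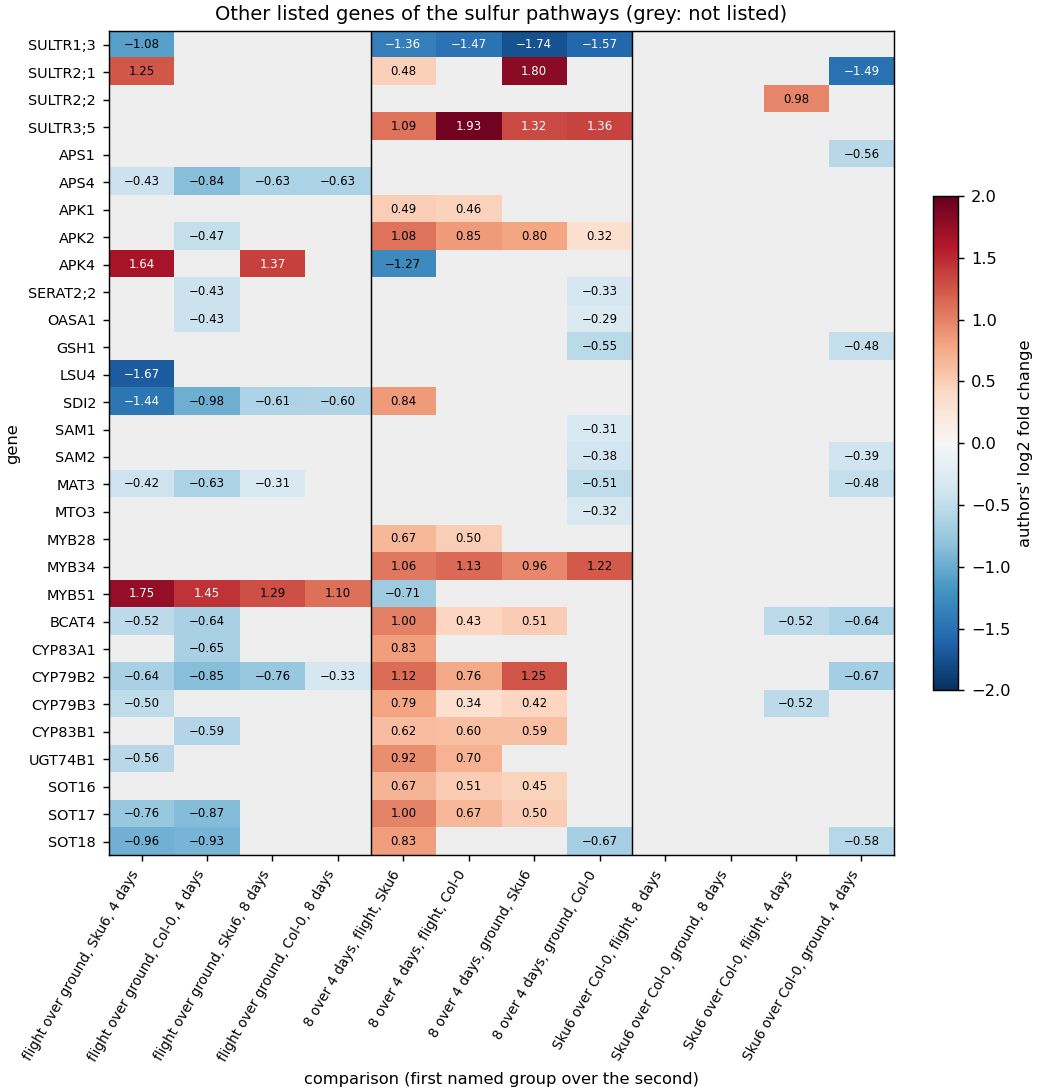
Log2 fold changes from the authors' deposited tables for the 30 listed sulfur metabolism genes outside the 10 (from top to bottom) in the 12 comparisons (from left to right); red is higher and blue is lower in the first named group, and grey is not listed. APS4, SDI2 and CYP79B2 are lower and MYB51 is higher in all 4 flight comparisons.

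Between genotypes 0 of the 65 genes were higher and 8 lower in Sku6 on the ground at 4 days. Of all loci, 1.45% were higher and 1.48% lower. The median log2 of the 8 was −0.57 in the authors' deposited table. It was −0.37 for all listed loci, which pool both directions, and −0.66 for the lower loci alone. APS1 was at 191 FPKM in Sku6 and 281 FPKM in Col-0 in that table, a log2 fold change of −0.56 in the authors' deposited table. In flight at 4 days 1 was higher and 2 lower, where 1.55% of all loci were higher and 0.473% lower, and at 8 days 0 were listed in either place.

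The genes whose pattern over the 12 comparisons was most like that of APR1, by the number of comparisons with the same call, were BAT5 and BCAT4, alike in 11 of 12, and ESB1, alike in 10. All 3 were listed with APR1 in 7 comparisons, where the mean absolute difference of log2 fold changes was 0.21 for BAT5, 0.30 for BCAT4 and 0.26 for ESB1. BAT5 and BCAT4 are a plastid transporter and an aminotransferase of methionine-derived glucosinolate synthesis, and ESB1 is needed for the Casparian strip of the endodermis. BAT5 was at 41.7 FPKM in flight and 68.0 FPKM in ground roots of Sku6 at 4 days, and at 93.2 FPKM at 8 days and 42.9 FPKM at 4 days in flight Sku6 roots, in the authors' deposited tables. For APR2 the most alike were AT5G61340, AT1G30130 and AT3G57020, each alike in 12 of 12, with mean absolute differences of 0.19, 0.26 and 0.27 over the 4 comparisons that list them. For all of these genes, the matches beyond the comparisons that list both are comparisons that list neither, which is no measurement. How many loci reach such a count without any relation was not tested. The comparisons also share groups, so this likeness is a description.

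The authors' loci for these genes, in their TAIR10 coordinates, can span neighbours. The APR1 locus runs over chr4:2297299-2328273 and covers 8 annotated genes, and AT4G04614 overlaps APR1 on the opposite strand. The APR2 locus, chr1:22973840-22977625, covers 3, and AT1G62170 and the long non-coding RNA AT1G08477 lie on the opposite strand. The LSU2 locus, chr5:8437073-8468250, covers 8. Counting is not stated to use strand, so reads of genes that overlap on opposite strands cannot be told apart in these values.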

How the data were processed

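RNA from 32 root samples was sequenced, 4 per group. Per the submitters' processing notes the tools were Cuffdiff and Cufflinks, STAR 2.5.1b, Picard, Trimmomatic 0.36 and FastQC 0.11.2, with the TAIR10 build. Their order and settings were not given in the sources used here. In each of 12 tables the authors deposited an FPKM value for both groups, the log2 fold change, its p-value and its q-value, and every deposited q-value is at most 0.05. No value per sample was in hand, so no test was added and the authors' q-value is the call. The test statistic in the tables was left aside.

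The log2 fold changes were taken as flight over ground, 8 over 4 days and Sku6 over Col-0. The number of loci tested was worked back from p and q, a step tested on simulated data. Percentages of loci listed are of that number. The smallest deposited p-value was 5e-05, so many loci share a q-value.

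Gene positions and upstream sequence came from RefSeq TAIR10.1, in which 5040 of the 5063 identifiers were found. Named were the 10 genes, up to 4 genes per list and comparison with the largest absolute log2 fold change, and up to 3 genes most like each of APR1 and APR2. The genes, lists and rules were chosen with earlier results of these data known. Alternatives were a q-value of at most 0.01, an absolute log2 fold change of at least 1, 1 FPKM added to both groups (kept at an absolute log2 of at least 0.5), at least 1 FPKM in both groups, and merged loci left out. A further root marker is not reported here, and the root marker counts and sums leave it out. Tables were read with Python 3.11.15 and pandas 2.3.3.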

Additional observations from a re-analysis of the deposited data

Results flagged for a closer look

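The age change of APR1 went in opposite directions in different groups. At 8 days over 4 days the log2 fold changes in the authors' deposited tables were 1.39 in flight Sku6 roots, 0.61 in flight Col-0 roots and 0.45 in ground Sku6 roots, and −0.38 in ground Col-0 roots. The authors' q-values were 0.00133, 0.00673, 0.0259 and 0.0406 in that order. The lower entry, in ground Col-0 roots, was lost with a q-value of at most 0.01 or an absolute log2 of at least 1. It was also lost with 1 FPKM added, and the ground Sku6 entry was lost under the same alternatives. The difference between the groups was not tested, because the deposited tables hold no values per sample.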

How the results depend on the processing

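The alternatives filter entries or add 1 FPKM to both groups, and none of them can reverse the direction of a listed change. They show only which entries of the 10 genes are kept. The lowest level among these entries was 10.0 FPKM, so the floor of 1 FPKM could remove none. Of 16 entries, 8 had a q-value of at most 0.01 (2 higher and 6 lower, all of APR1 or APR2), 4 had an absolute log2 fold change of at least 1 (APR1, APR2 and LSU2), 13 were kept with 1 FPKM added, 16 with at least 1 FPKM in both groups, and 15 without merged loci, where LSU2 was lost. With a q-value of at most 0.01 the count of the 10 genes was 0 in 8 over 4 days on the ground for Sku6 and in Sku6 over Col-0 in flight at 8 days, in flight at 4 days and on the ground at 4 days, and 1 in 8 over 4 days on the ground for Col-0. With an absolute log2 fold change of at least 1 it was 0 in flight over ground for Col-0 at 4 days and Sku6 at 8 days, in the age comparisons of flight Col-0, ground Sku6 and ground Col-0, and in the genotype comparisons in flight at 8 and 4 days and on the ground at 4 days. With 1 FPKM added it was 1 in 8 over 4 days on the ground for each genotype.

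Of all 75 sulfur genes, a q-value of at most 0.01 left 11 in flight over ground for Sku6 at 4 days, and in Sku6 over Col-0 it left 0 in flight at 8 days, 1 in flight at 4 days and 5 on the ground at 4 days. An absolute log2 fold change of at least 1 left, in flight over ground, 9 for Sku6 and 1 for Col-0 at 4 days, and 2 for Sku6 and 1 for Col-0 at 8 days. In 8 over 4 days it left 8 in flight Sku6, 3 in flight Col-0, 4 in ground Sku6 and 3 in ground Col-0, and in Sku6 over Col-0 it left 0 in flight at 8 days, 0 in flight at 4 days and 1 on the ground at 4 days.

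No paired analysis was possible because the deposited tables hold 1 value per group and none per sample. For the same reason leaving out each replicate was not run, no spread or depth can be given, and a single library that decides a value would not be seen. Levels set across tables carry a scaling difference of a factor of up to 1.04.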

Other observations

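MYB51 and CYP79B2 moved in opposite directions in flight. MYB51, a transcription factor known to activate indolic glucosinolate genes, was higher in all 4 flight comparisons, with log2 fold changes of 1.75 in Sku6 and 1.45 in Col-0 at 4 days, and 1.29 in Sku6 and 1.10 in Col-0 at 8 days in the authors' deposited tables. Its levels were low, at 8.22 FPKM in flight and 2.44 FPKM in ground roots of Sku6 at 4 days in the authors' deposited table. CYP79B2, a gene of the indolic branch, was lower in the same 4 comparisons, with log2 fold changes of −0.64 in Sku6 and −0.85 in Col-0 at 4 days, and −0.76 in Sku6 and −0.33 in Col-0 at 8 days in the authors' deposited tables. MYB34, a related factor, was listed in no flight comparison.

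Of the 442 loci listed in all 4 age comparisons, 8 had both directions, and 4 of these were lower at 8 days in ground Col-0 roots and higher in the other 3 settings. APR1 is one of the 4. The others, named after their values were seen, are ESB1, UMAMIT14 and AT2G39430. In ground Col-0 roots their log2 fold changes were −0.45 for ESB1, −0.99 for UMAMIT14 and −0.66 for AT2G39430 in the authors' deposited table, and in flight Sku6 roots 0.85 for ESB1, 0.74 for UMAMIT14 and 1.05 for AT2G39430.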
